A study of Mus musculus with 6 samples.

Results

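The genes described here are 41 interferon response genes of mouse lung, listed by name: transcription factors of the interferon signal, sensors and regulators, antiviral effectors, interferon-induced GTPases and the class I antigen presentation machinery. All probes that the annotation used here pairs with these genes were taken, and a probe was kept where its detection p-value was below 0.05 on at least 3 of the 6 arrays. This gave 49 probes for 33 of the 41 genes, out of 13361 tested probes and 9383 tested genes. No probe was named here for Ifih1, Trim25, Ifit1, Oas1a, Mx1, Ifi44, Gbp4 and Iigp1, so these 8 genes were not analysed. The annotation used here names 12495 of the 25697 probes on the array, so unnamed probes may target them. Each gene is given by its brightest tested probe, and 12 of the 33 had more than 1.

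RNA of whole lung from 6 mice was hybridised to Illumina bead arrays, with 1 array for each mouse. The 3 mutant mice were Tmem1002loxP/2loxP;ROSA26+/CreER and the 3 control mice Tmem1002loxP/2loxP, so that both groups carried loxP-flanked copies of Tmem100, and both received 2 intraperitoneal injections of tamoxifen at 0.1 mg per g of body weight, 7 days before the lungs were taken. Tamoxifen activates the CreER recombinase, which is expressed from the broadly active ROSA26 locus and is not limited to the endothelial cells that express Tmem100, a membrane protein gene induced by ALK1 signalling. Because the control mice lacked CreER, loss of Tmem100 and active CreER cannot be told apart, and no source used here gives the age or sex of the mice.

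Cells release interferons when sensors detect foreign nucleic acid, and T and NK cells release interferon gamma. Type I interferons signal through the kinases TYK2 and JAK1 to a complex that holds STAT2 and IRF9 and binds the interferon-stimulated response element (ISRE) of antiviral genes. Interferon gamma signals through JAK1 and JAK2, acts on promoters with a gamma-activated site (GAS), and induces IRF1, the guanylate-binding and immunity-related GTPases and the genes of class I presentation. The programmes overlap, since many genes answer to both. The measured genes were divided into 19 type I genes and 14 gamma-type genes, the second group holding 7 GTPase and factor genes and 7 genes of class I presentation. In lung these genes are expressed at a resting level by leukocytes, endothelium and epithelium.

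Levels below are normalised log2 intensities. A gene was said to rise or fall when limma's moderated test of 3 mutants against 3 controls gave an adjusted p below 0.05 (Benjamini-Hochberg over all 13361 probes), and errors of log2 differences are standard errors of that fit. Tmem100 itself read 8.44, 9.43 and 9.51 in mutant mice 1, 2 and 3, against 11.16, 15.36 and 10.69 in control mice 1, 2 and 3, and did not pass (adjusted p = 0.0749). Many genes differed in these lungs, and 26.7% of all tested probes passed. Of the cell type markers checked, 6 lung epithelial genes did not differ past the threshold, 4 of 6 endothelial genes fell, and 6 of 7 glucocorticoid-responsive genes rose. The sharpest falls among marker lists were in genes of skeletal and cardiac muscle and of fat. Myl3, Actc1 and Ckm, 3 of 4 muscle markers measured, were 17.3-fold, 9.56-fold and 8.18-fold lower. Adipoq, 1 of 2 fat markers measured, was 10.7-fold lower. Ckm was detected on 0 of the 3 mutant arrays and Adipoq on 1, so array background limits the size of their folds. Without mutant mouse 3 neither passed limma's test (adjusted p = 0.0901 for Ckm and 0.0905 for Adipoq). The summed level of the muscle markers was 2462 to 4824 in mutants, against 10509 to 26445 in controls, and that of the fat markers 118 to 234 in mutants, against 374 to 4309 in controls. The summed linear level of the endothelial markers was 40398 to 46077 in mutants, against 58469 to 60741 in controls, and that of 3 pan-leukocyte markers, of which 2 fell, was 22738 to 25908 in mutants, against 31261 to 37847 in controls. The part of these shifts in the interferon results was not tested. In whole tissue, fewer cells of a type and less RNA per cell cannot be told apart.

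Promoter windows show what many of these genes share. RefSeq windows of assembly GRCm38.p6, from 250 bases before to 50 after the transcription start, were found for 27 of the 33 measured genes. The ISRE core, GAAA followed by 2 bases of any kind and a further GAAA, was searched on both strands and matched in 11 of the 27 (40.7%), against 3.99% of 27025 genes with a window. The GAS core TTCNNNGAA, which reads the same on both strands, matched in 9 of the 27 (33.3%), against 9.55% of all genes. A match is a run of letters and was not tested as a binding site. Of the type I genes with a window 6 of 14 held the ISRE core and 5 of 14 the GAS core, and of the gamma-type genes 5 of 13 and 4 of 13, which are like shares in both classes. Below are windows of 5 genes that fell and, for comparison, of Isg15, which holds 3 overlapping ISRE cores. They are written 5′ to 3′ on the strand of the gene, with matches to either core in capitals (GAS in Irf1, ISRE in Isg15 and Gbp2, both in Bst2 and Igtp, neither in Psmb9).
Irf1 (chr11:53769764-53770063, plus strand): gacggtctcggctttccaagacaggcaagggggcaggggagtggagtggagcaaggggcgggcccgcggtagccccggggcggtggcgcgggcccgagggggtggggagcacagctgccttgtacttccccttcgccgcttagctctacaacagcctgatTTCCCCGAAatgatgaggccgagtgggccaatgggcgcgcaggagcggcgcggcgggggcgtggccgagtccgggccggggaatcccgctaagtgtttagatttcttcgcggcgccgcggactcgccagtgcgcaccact
Isg15 (chr4:156200769-156201068, minus strand): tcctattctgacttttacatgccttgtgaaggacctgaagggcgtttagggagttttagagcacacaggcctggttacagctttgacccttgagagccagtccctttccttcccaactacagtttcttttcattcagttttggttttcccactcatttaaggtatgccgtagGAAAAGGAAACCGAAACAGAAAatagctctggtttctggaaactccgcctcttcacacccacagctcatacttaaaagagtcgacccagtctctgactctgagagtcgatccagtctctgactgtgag
Bst2 (chr8:71537423-71537722, minus strand): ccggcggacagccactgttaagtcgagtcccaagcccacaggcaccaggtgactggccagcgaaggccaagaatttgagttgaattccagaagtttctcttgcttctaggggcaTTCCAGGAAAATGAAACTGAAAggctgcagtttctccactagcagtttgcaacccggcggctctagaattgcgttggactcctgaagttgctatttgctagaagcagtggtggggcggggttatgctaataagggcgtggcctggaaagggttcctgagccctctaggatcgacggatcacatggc
Gbp2 (chr3:142620413-142620712, plus strand): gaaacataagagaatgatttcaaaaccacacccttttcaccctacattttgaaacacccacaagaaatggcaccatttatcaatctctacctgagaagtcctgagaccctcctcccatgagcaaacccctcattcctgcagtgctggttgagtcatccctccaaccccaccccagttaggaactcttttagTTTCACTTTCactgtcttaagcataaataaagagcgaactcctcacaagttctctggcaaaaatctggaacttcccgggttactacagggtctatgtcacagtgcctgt
Igtp (chr11:58199306-58199605, plus strand): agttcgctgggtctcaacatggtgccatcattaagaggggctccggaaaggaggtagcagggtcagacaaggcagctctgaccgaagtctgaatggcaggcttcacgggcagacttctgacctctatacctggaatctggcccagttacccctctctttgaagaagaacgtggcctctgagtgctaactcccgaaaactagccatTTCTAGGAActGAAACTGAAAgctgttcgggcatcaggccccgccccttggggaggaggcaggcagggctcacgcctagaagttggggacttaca
Psmb9 (chr17:34187281-34187580, minus strand): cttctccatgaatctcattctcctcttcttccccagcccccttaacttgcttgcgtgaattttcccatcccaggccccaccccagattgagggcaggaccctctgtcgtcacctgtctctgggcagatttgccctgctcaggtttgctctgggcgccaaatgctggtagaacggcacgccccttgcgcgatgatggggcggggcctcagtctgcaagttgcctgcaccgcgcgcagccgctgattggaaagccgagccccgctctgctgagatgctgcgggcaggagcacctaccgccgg
In Bst2 the GAS match begins at position -136 from the start and overlaps the first of 2 ISRE matches, which begin at -130 and -124. In Igtp the matches begin at -45 (GAS) and -34 (ISRE), in Gbp2 the ISRE match begins at -59, and in Irf1 the GAS match begins at -90. The Psmb9 window holds neither core, and 275 of its bases are shared with the window of Tap1, which is read from the other strand.

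**Figure D1:**
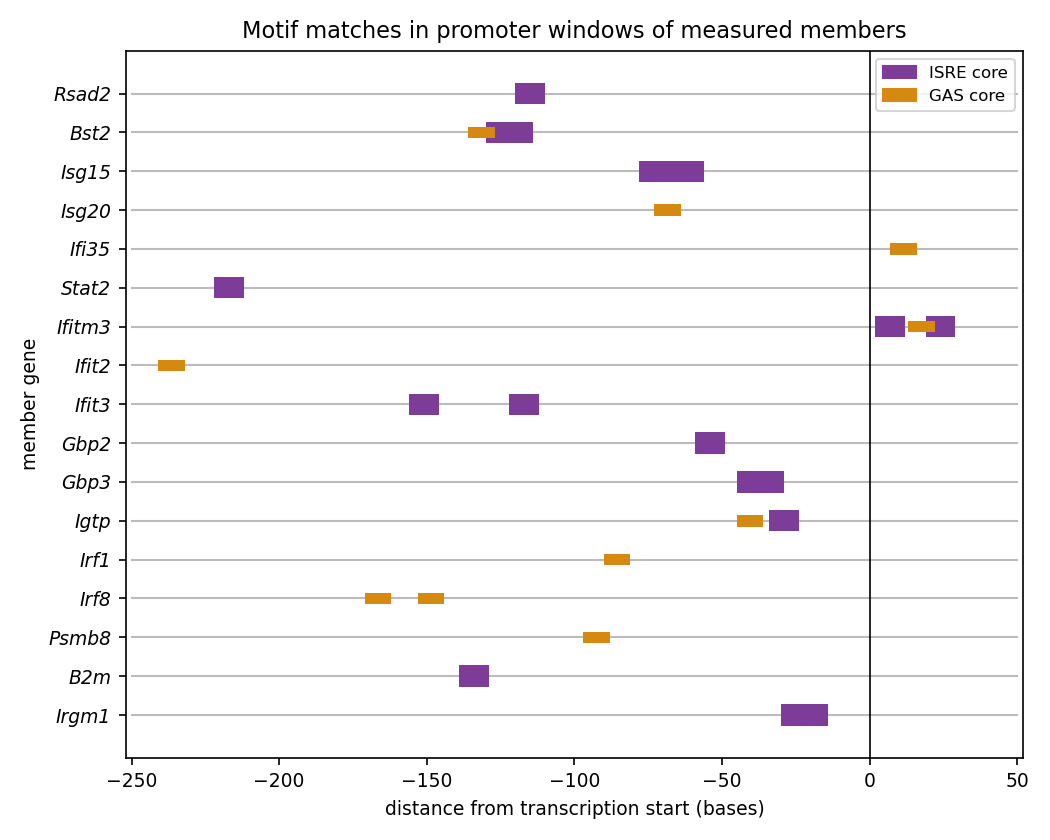
Positions of ISRE core matches (purple) and GAS core matches (orange) in the promoter windows of the measured interferon genes that hold at least 1 match, as distance in bases from the transcription start (vertical line). Most matches lie before the start, and those of Ifitm3 and Ifi35 lie after it.

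Most interferon genes had a lower mean level in mutant lungs, and a minority passed the test. Of the 33 measured genes 7 fell (Gbp2, Gbp3, Igtp, Psmb9, Psmb10, Bst2 and Irf1), 1 rose (Ifitm1) and 25 did not pass, where 14.5% of all tested genes fell and 12.7% rose. The log2 difference was negative in 28 of the 33, against 48.9% of all tested genes, and its median was -0.47, against 0.01 over all tested genes. All 3 mutants lay below all 3 controls for 10 of the 33 genes, where 24.5% of all genes did so, and above them for 2, where 24.6% did so. Bst2, Gbp2, Psmb9 and Psmb10 fell under every one of the 16 alternatives run. The falls of Gbp3, Igtp and Irf1 were less stable: leaving out any 1 of control mice 1, 2 and 3 or mutant mice 1 and 2 ended each of these calls. With mutant mouse 1 or 2 or control mouse 1 or 2 left out, 4 genes fell each time. Of all tested genes 9.12%, 11.6%, 7.17% and 8.92% fell in these same fits, so a count of 4 in 33 was near or somewhat above that share. With control mouse 3 left out 7 fell, among them Ifi35, Isg20 and Tap2, against 12.3% of all genes, and with mutant mouse 3 left out 16 fell.

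**Figure D2:**
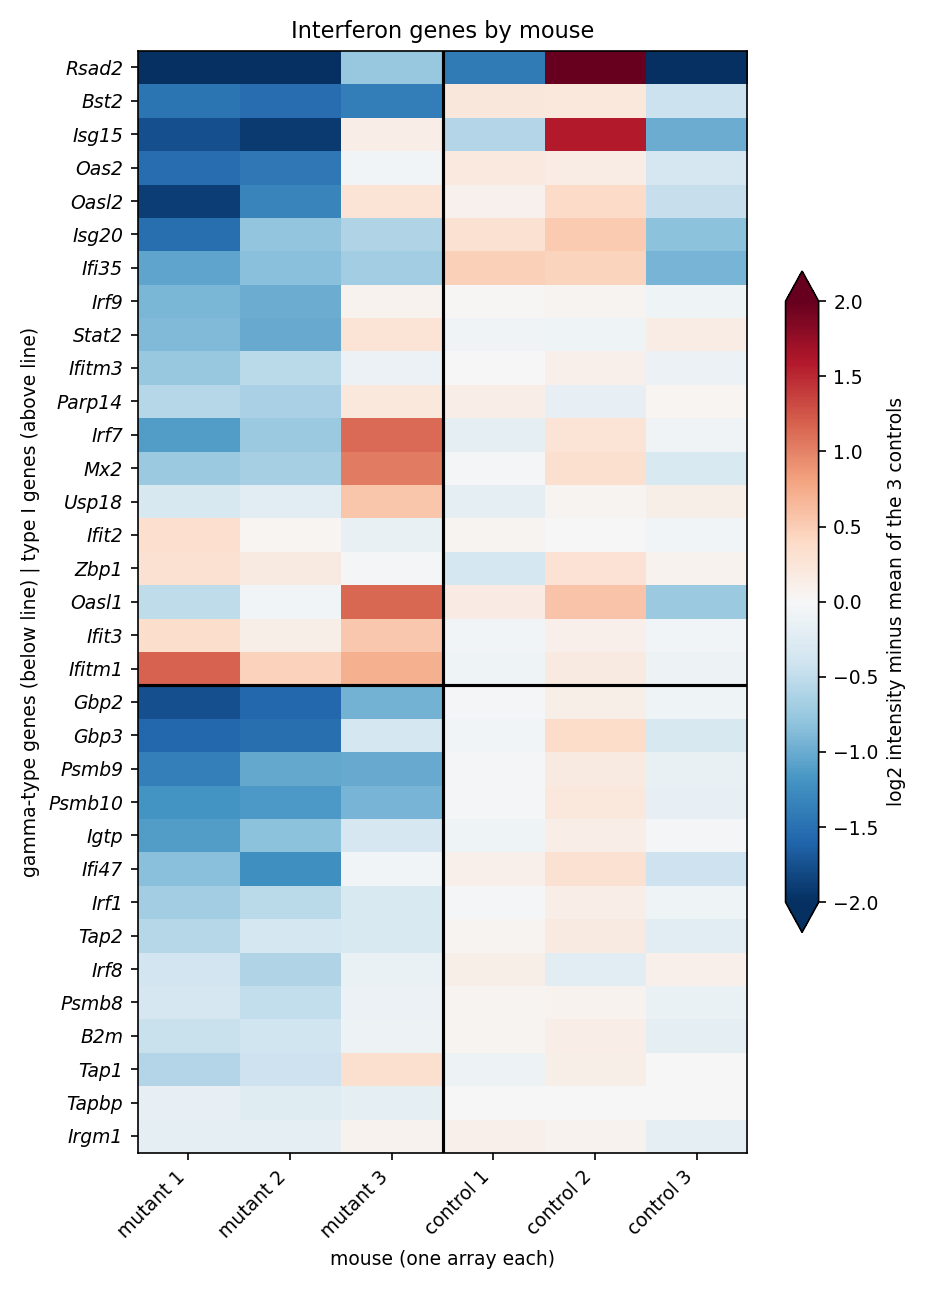
Log2 intensity of each measured interferon gene in each mouse minus the mean of the 3 controls, with type I genes above the horizontal line and gamma-type genes below it (colour scale stops at -2 and 2). Mutant mice 1 and 2 are below the control mean for most genes, whereas mutant mouse 3 is near or above it for many type I genes and closer to it than the other mutants for most gamma-type genes.

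Some of the interferon-induced GTPases fell, and only the fall of Gbp2 was stable. The GTPases gather on the membranes that surround intracellular pathogens. Of 5 measured, 3 fell, none rose, and the median difference was -0.76, where 14.5% of all tested genes fell. With any 1 of control mice 1, 2 and 3 or mutant mice 1 and 2 left out, Gbp2 still fell. Gbp3 and Igtp did not pass in any of those fits. Gbp2, a guanylate-binding protein gene, read 11.08, 11.27 and 11.88 in mutant mice 1, 2 and 3, against 12.80, 12.95 and 12.74 in control mice 1, 2 and 3. No mutant value came near the controls, and the difference was -1.42 ± 0.21, a 2.68-fold lower level (adjusted p = 0.00615). Gbp3, which lies with it on chromosome 3, read 9.06, 9.13 and 10.29 in mutants, against 10.59, 11.01 and 10.32 in controls. Mutant mouse 3 lay just under the lowest control, and the difference of -1.15 ± 0.35 passed narrowly (adjusted p = 0.0498), while a second Gbp3 probe gave the same size and missed (adjusted p = 0.0596). Igtp, an immunity-related GTPase gene also called Irgm3, read 10.08, 10.37 and 10.85 in mutants, against 11.10, 11.33 and 11.15 in controls (difference -0.76 ± 0.20, adjusted p = 0.0335). Here too the groups did not overlap and mutant mouse 3 was the mutant nearest to the controls.

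The other 2 GTPases lie with Igtp on chromosome 11 and did not pass. Ifi47, another immunity-related GTPase gene, read 7.96, 7.57 and 8.74 in mutants, against 8.90, 9.11 and 8.38 in controls (difference -0.71 ± 0.32, adjusted p = 0.143). Mutant mouse 3 lay within the control range and the other mutants below it. Irgm1, which acts in autophagy and in the control of other GTPases, differed by -0.10 ± 0.14 (adjusted p = 0.618), with overlapping groups.

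**Figure D3:**
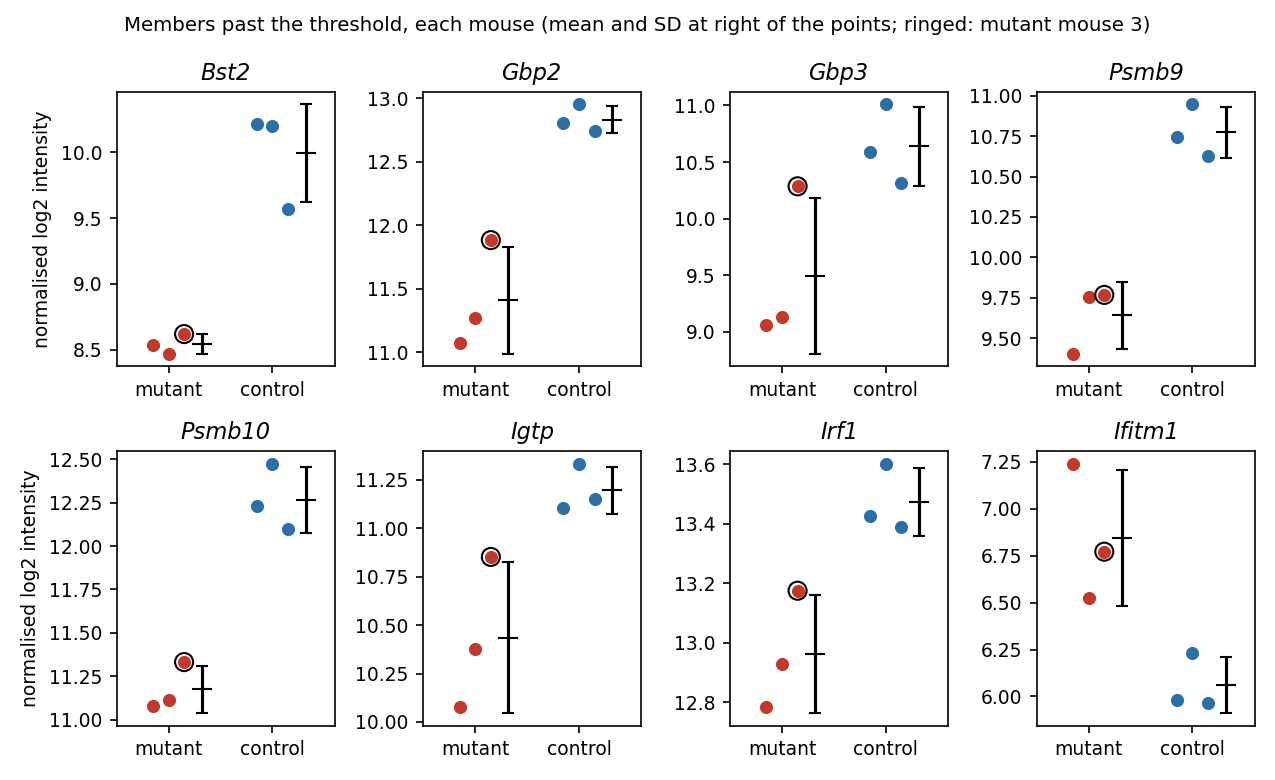
Normalised log2 intensity in each mouse for the 8 interferon genes that passed the threshold, mutants in red at left and controls in blue at right, with the mean and SD (n = 3 each) beside the points and mutant mouse 3 ringed; each panel has its own scale. Groups do not overlap in any panel, and for all 7 genes that fell mutant mouse 3 is the mutant nearest to the controls.

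Of 7 class I presentation genes 2 fell, where 14.5% of all tested genes fell. Both are among the 3 immunoproteasome subunits, and the peptide transporter did not pass. The immunoproteasome replaces the standard catalytic subunits and cuts proteins into peptides that fit class I molecules, TAP1 and TAP2 carry these peptides into the endoplasmic reticulum, tapasin (Tapbp) helps to load them, and B2m is the light chain of every class I molecule. Psmb9 read 9.40, 9.76 and 9.77 in mutant mice 1, 2 and 3, against 10.74, 10.95 and 10.63 in control mice 1, 2 and 3. The 2.19-fold lower level (difference -1.13 ± 0.15, adjusted p = 0.00476) was shared by all 3 mutants. Psmb10 read 11.08, 11.12 and 11.33 in mutants, against 12.23, 12.47 and 12.10 in controls, a difference of -1.09 ± 0.14 (adjusted p = 0.00445), and its second probe fell by 1.18 ± 0.12. The remaining subunit, Psmb8, differed by -0.32 ± 0.14 (adjusted p = 0.126), and mutant mouse 3 read 7.70 in it, against a lowest control of 7.69.

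Psmb9 and Tap1 are neighbours on chromosome 17 with starts 226 bases apart, transcribed in opposite directions. Tap1 read 8.49, 8.67 and 9.40 in mutants, against 8.98, 9.19 and 9.06 in controls, so that mutant mouse 3 was the highest of all 6 mice and the others the lowest. Its difference of -0.23 ± 0.24 did not pass (adjusted p = 0.507). Whether the differences of Psmb9 and Tap1 are unequal was not tested. Tap2 (-0.41 ± 0.15, adjusted p = 0.0788), Tapbp (-0.20 ± 0.10, adjusted p = 0.186) and B2m (-0.31 ± 0.15, adjusted p = 0.155) had small negative differences that did not pass. For Tap2 and Tapbp all mutants lay below all controls, as was so for 24.5% of all tested genes. At the second Tapbp probe (-0.29 ± 0.20) the groups overlapped. The median of the 7 presentation genes was -0.32.

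Among 11 antiviral effectors 1 fell, 1 rose and 9 did not pass, where 14.5% of all tested genes fell and 12.7% rose. Bst2 encodes tetherin, which holds budding virus particles at the cell surface. It read 8.54, 8.47 and 8.62 in mutant mice 1, 2 and 3, against 10.21, 10.20 and 9.57 in control mice 1, 2 and 3. The mutants lay close together and all below the controls (difference -1.45 ± 0.19, 2.74-fold lower, adjusted p = 0.00458). Bst2 is also a marker of plasmacytoid dendritic cells, which are major producers of type I interferon. A further marker of these cells, Siglech, read 6.25, 6.34 and 6.68 in mutants, against 7.66, 7.77 and 7.48 in controls, and fell by 1.21 ± 0.15 on the log2 scale (adjusted p = 0.00404). The third marker measured, Tcf4, differed by -0.17 ± 0.11 and did not pass (adjusted p = 0.271). The summed level of the 3, most of it from Tcf4, was 13604 to 14611 in mutants, against 15775 to 16871 in controls. The part of these cells in the fall of Bst2 was not tested.

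The membrane protein genes Ifitm1 and Ifitm3, whose products hinder the entry of viruses, differed in opposite directions. Ifitm1 read 7.24, 6.53 and 6.77 in mutants, against 5.98, 6.23 and 5.97 in controls. All mutants were above all controls and it rose 1.72-fold (difference 0.78 ± 0.20, adjusted p = 0.0272), but its probe was dim and was detected on 2 of the 3 control arrays. Without background correction the difference was 0.21 (adjusted p = 0.0764), and in the authors' processed values 0.15 (adjusted p = 0.212), and the call also ended when any of mutant mice 1 and 3 and control mice 1 and 3 was left out. Ifitm3 was bright, at 14.43, 14.65 and 15.06 in mutants, against 15.20, 15.29 and 15.07 in controls, and did not pass (difference -0.47 ± 0.18, adjusted p = 0.0903).

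The proteins of the Ifit genes bind foreign RNA. Ifit3 read 12.98, 12.74 and 13.16 in mutants, against 12.57, 12.72 and 12.57 in controls (difference 0.34 ± 0.14, adjusted p = 0.113), and its other 2 probes also gave positive differences. All mutants were above all controls at the brightest probe, as was so for 24.6% of all tested genes. The gene has a near-identical copy whose transcripts may reach these probes. Ifit2 differed by 0.07 ± 0.15 (adjusted p = 0.745), but its second probe by -0.25 ± 0.23, and its sign was negative in the authors' processed values, as the mean of its probes and without mutant mouse 1 (-0.05, -0.09 and -0.06).

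The oligoadenylate synthetase genes split by mouse. The family senses double-stranded RNA, and the OASL proteins are relatives that carry ubiquitin-like domains. Oas2 read 6.78, 6.87 and 8.24 in mutants, against 8.49, 8.45 and 7.96 in controls (difference -1.003 ± 0.39, adjusted p = 0.0995). Oasl2 read 9.003, 9.57 and 11.17 in mutants, against 10.97, 11.27 and 10.43 in controls (difference -0.98 ± 0.53, adjusted p = 0.210). In both, mutant mice 1 and 2 were below every control and mutant mouse 3 was within the control range. Oasl1 was dim, detected on 2 of 3 mutant and 2 of 3 control arrays, and its difference of 0.19 ± 0.48 did not pass.

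The remaining effectors varied among mice of the same group. Mx2, a dynamin-like GTPase gene, read 7.00, 7.07 and 8.78 in mutants, against 7.73, 8.07 and 7.44 in controls, with mutant mouse 3 the highest of all 6. Isg20, an exonuclease gene, read 6.72, 7.44 and 7.63 in mutants, against 8.53, 8.75 and 7.40 in controls, where control mouse 3 lay among the mutants. Neither passed (adjusted p = 0.863 for Mx2 and 0.108 for Isg20). Rsad2, which encodes viperin, had the widest spread among controls of the 33 genes: 7.56, 7.95 and 9.31 in mutants, against 8.65, 13.78 and 7.76 in controls. Control mouse 2 alone was high. Without that mouse the difference turned from -1.79 to 0.07, neither past the threshold (adjusted p = 0.395 and 0.945). Control mouse 2 was also the highest of the 6 mice for Tmem100, the red cell gene Hba-a1 and the fat markers Adipoq and Cidec. Of the 4 muscle markers it was the highest for Actc1 and Myh6 and not for Myl3 and Ckm. Whether its Rsad2 value goes with any of these was not tested.

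Of the 5 factors that carry the signal, Irf1 fell and the rest did not pass with all 6 mice, where 14.5% of all tested genes fell. Irf1, a factor induced by interferon gamma, read 12.78, 12.93 and 13.18 in mutant mice 1, 2 and 3, against 13.43, 13.60 and 13.39 in control mice 1, 2 and 3. The groups did not overlap and the difference was -0.51 ± 0.14 (adjusted p = 0.0363), but none of its other 3 probes passed, with differences of -0.36, -0.20 and 0.11. Stat2 and Irf9 are partners in the factor that type I interferon activates. Stat2 read 8.09, 7.97 and 9.25 in mutants, against 8.91, 8.89 and 9.12 in controls (difference -0.54 ± 0.33, adjusted p = 0.260). Irf9 read 9.56, 9.47 and 10.54 in mutants, against 10.49, 10.53 and 10.39 in controls (difference -0.61 ± 0.28, adjusted p = 0.144). In each, mutant mouse 3 was the highest of the 6 mice and the other mutants were the lowest.

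Irf7, which amplifies type I interferon production, had the widest spread among mutants of the 33 genes. It read 8.08, 8.44 and 10.32 in mutants, against 8.99, 9.46 and 9.12 in controls (difference -0.24 ± 0.54, adjusted p = 0.769). The SD was 1.20 among mutants and 0.24 among controls. Irf8, a factor of dendritic cells, macrophages and B cells, differed by -0.37 ± 0.16 (adjusted p = 0.132).

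None of the 5 sensors and regulators passed. Isg15, a ubiquitin-like protein gene, read 7.64, 7.49 and 9.53 in mutants, against 8.81, 10.99 and 8.40 in controls, so that control mouse 2 was the highest and mutant mouse 3 the next (difference -1.18 ± 0.79, adjusted p = 0.298). Ifi35, the gene of this class with the lowest p, read 6.80, 7.02 and 7.16 in mutants, against 8.33, 8.30 and 6.93 in controls (difference -0.86 ± 0.37, adjusted p = 0.127). Control mouse 3 lay among the mutants, and without it Ifi35 passed (adjusted p = 0.00683). Parp14, an ADP-ribosyltransferase gene, read 11.39, 11.32 and 12.18 in mutants, against 12.09, 11.80 and 11.998 in controls and did not pass. Usp18, which removes ISG15 from proteins and restrains the type I receptor, differed by 0.00 ± 0.24, with mutant mouse 3 at 11.57 above all other mice, which lay between 10.69 and 11.13. The nucleic acid sensor gene Zbp1 differed by 0.15 ± 0.19.

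Type I and gamma-type genes had nearly the same median difference but different spreads. Of 19 type I genes 1 fell, 1 rose and 14 had a negative difference, with a median of -0.47. Of 14 gamma-type genes 6 fell, none rose and all 14 had a negative difference, with a median of -0.46, or -0.71 over the 7 that do not belong to class I presentation. Over all tested genes 14.5% fell, 12.7% rose and 48.9% had a negative difference. The median SD among mutants was 0.48 for type I genes, 0.20 for gamma-type genes and 0.17 for all tested genes. Among controls it was 0.30, 0.16 and 0.16 for the same classes. Whether the classes differ was not tested.

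Mutant mouse 3 stood apart in these genes. It was the highest of the 3 mutants for 29 of the 33 genes, against 36.0% of all tested genes, and it exceeded all 5 other mice for 8 of 19 type I genes and 1 of 14 gamma-type genes, against 24.2% of all. Its value minus the mean of mutant mice 1 and 2 had a median of 0.83 for type I genes, 0.32 for gamma-type genes and -0.02 for all tested genes. Set against the mean of the controls, the median type I gene was at -0.88, -0.74 and 0.13 in mutant mice 1, 2 and 3, and the median gamma-type gene at -0.64, -0.57 and -0.25. In the controls these medians lay between -0.11 and 0.21 for type I genes and between -0.14 and 0.13 for gamma-type genes. Mutant mouse 3 thus lay within the range of the control medians for type I genes and below it for gamma-type genes. Among controls, control mouse 2 was the highest for 23 of the 33 genes, against 34.6% of all tested genes. Mutant mouse 3 was also the highest mutant for 4 of the 5 measured T and NK cell markers, against 36.0% of all tested genes. The summed level of the 5 was 2512 to 4637 in mutants, against 3123 to 4798 in controls. The remaining marker, Nkg7, fell by 0.99 ± 0.19 on the log2 scale (adjusted p = 0.0116), with all 3 mutants below all 3 controls. Mutant mouse 3 was the highest mutant for 3 of 4 neutrophil and 3 of 3 plasmacytoid dendritic cell markers. Bst2, counted among the latter, also belongs to the 33 interferon genes. Among the other lists it was so for 5 of 7 glucocorticoid-responsive, 2 of 6 endothelial, 1 of 2 conventional dendritic cell and 1 of 6 lung epithelial genes. It was so for none of the B cell, macrophage, pan-leukocyte, muscle, fat and red cell markers measured. The part of any of these cells or genes in the interferon gene levels of mutant mouse 3 was not tested.

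**Figure D4:**
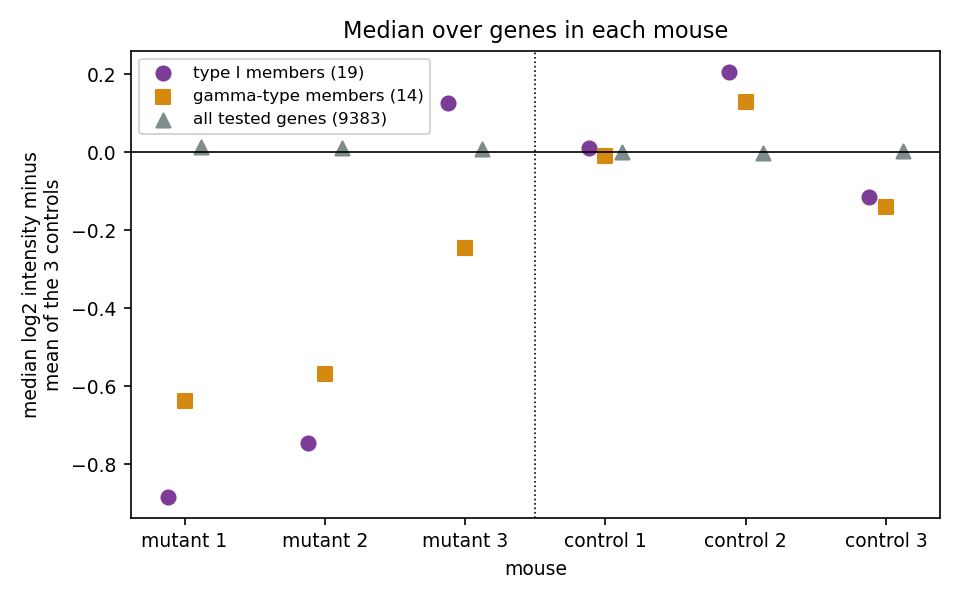
Median over genes of log2 intensity minus the mean of the 3 controls, in each mouse, for type I genes (circles), gamma-type genes (squares) and all tested genes (triangles). Mutant mice 1 and 2 are low for both classes, mutant mouse 3 is at 0.13 for type I and -0.25 for gamma-type genes, and the median of all genes is near 0 in every mouse.

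Without mutant mouse 3, more interferon genes passed. Then 16 of the 33 fell and 0 rose in limma's test, against 12.3% and 10.9% of all tested genes. That mouse was set apart with earlier results of these data known. It was the highest mutant for 29 of the 33 genes, against 36.0% of all tested genes. Leaving it out lowers the mutant mean of those genes. The counts and adjusted p-values given here are therefore descriptive, and the shares over all tested genes are not an equal measure for them. The 16 held all 7 that fell with 6 mice and, beside them, Stat2, Irf9, Irf7, Parp14, Ifitm3, Oas2, Oasl2, Ifi47 and Tap1. By class they were 8 type I and 8 gamma-type genes, and the median differences became -0.93 and -0.56. Stat2 differed by -0.94 ± 0.13 (adjusted p = 0.0103), Irf9 by -0.96 ± 0.11 (adjusted p = 0.00873) and Irf7 by -0.93 ± 0.19 (adjusted p = 0.0233) with 2 mutants. Oasl2 reached -1.60 ± 0.29 and Oas2 -1.48 ± 0.19. Ifitm1 no longer passed (adjusted p = 0.0503). Mutant mice 1 and 2 were both below all controls for 24 of the 33 genes, 13 of 14 gamma-type and 11 of 19 type I, against 28.7% of all tested genes. The median type I difference lay between -0.30 and -0.47 when any 1 of the other mice was left out.

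**Figure D5:**
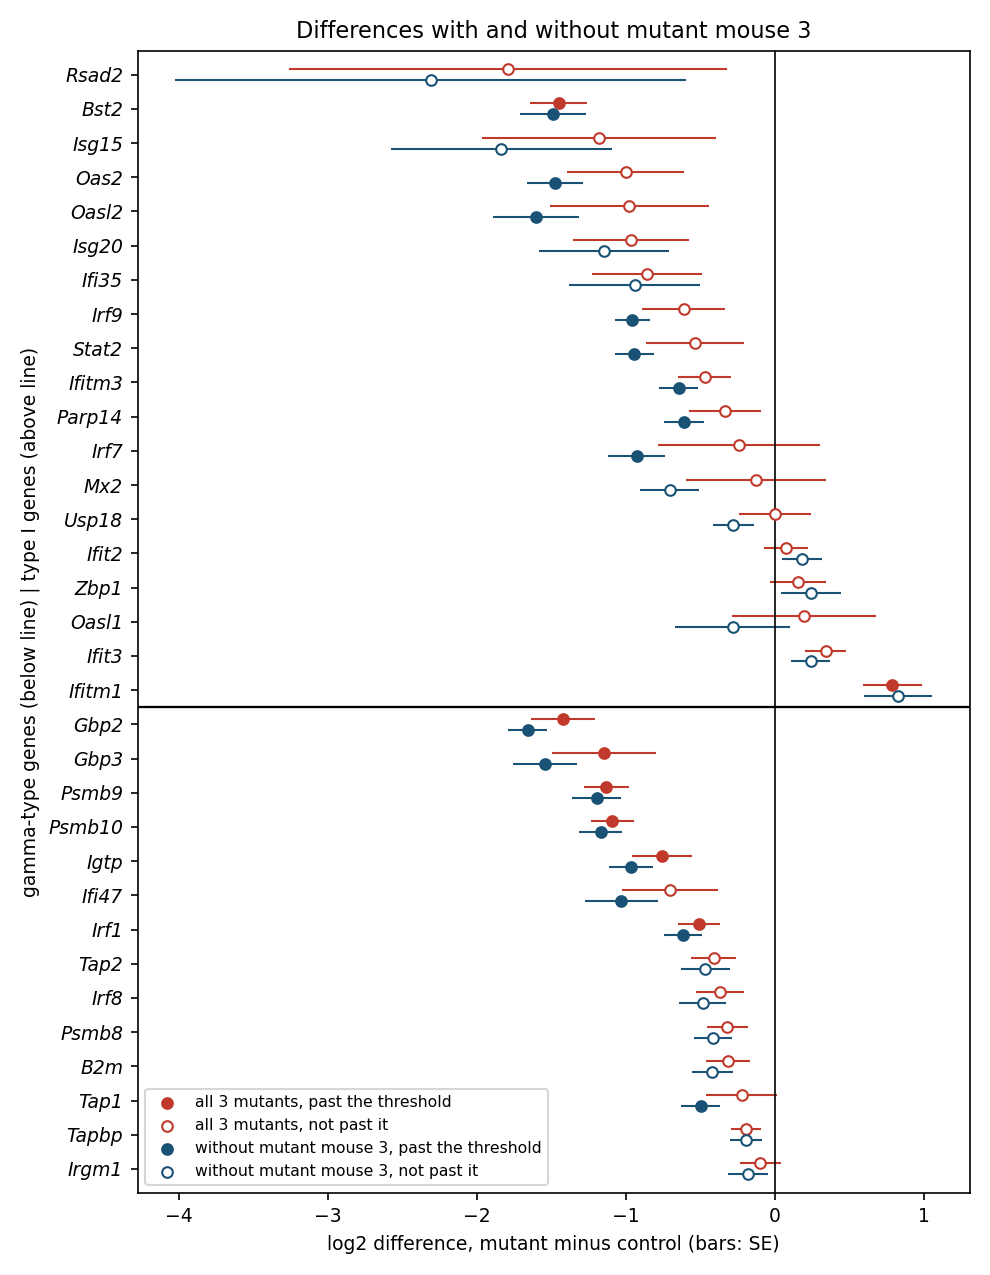
Log2 difference, mutant minus control, of each measured interferon gene with all 3 mutants (red) and without mutant mouse 3 (blue), with SE bars; filled points passed an adjusted p of 0.05. The filled points number 8 with all mutants, 1 of them to the right of 0, and 16 without mutant mouse 3, all to the left of 0.

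Other genes of the pathway were taken from a list of ligands, receptors, factors, sensors, restraints and further induced genes. Of 116 listed genes 77 were measured, of which 23 fell and 3 rose, with a median difference of -0.15, where 14.5% of all tested genes fell and 12.7% rose. With control mouse 1 or control mouse 2 left out 13 fell each time (7.17% and 8.92% of all genes), with mutant mouse 1 left out 15 fell (9.12% of all genes), and with mutant mouse 3 left out 27 fell (12.3% of all genes). Among ligands, Il12a fell by 1.42 ± 0.26 and Il15 by 0.63 ± 0.13 on the log2 scale, though Il12a was detected on 2 of the 3 mutant arrays. The call of Il15 ended when any of mutant mouse 1 and control mice 1 and 2 was left out (adjusted p = 0.0588, 0.0615 and 0.0525). Both encode cytokines that drive T and NK cells, while no probe was named here for Ifng or Ifnb1. The kinase gene Tyk2 fell by 0.69 ± 0.12. The interferon gamma receptor chains went apart: Ifngr1 rose by 0.52 ± 0.13 and Ifngr2 fell by 0.40 ± 0.12, but each call ended under several alternatives, among them without mutant mouse 3 (adjusted p = 0.0607 and 0.0824).

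Of the factors listed, 3 of 6 measured fell, where 14.5% of all tested genes fell. Ciita, the switch of class II genes that interferon gamma induces, read 7.08, 7.11 and 5.83 in mutant mice 1, 2 and 3, against 8.69, 8.67 and 8.74 in control mice 1, 2 and 3. Here mutant mouse 3 was the lowest of all mice, and its array was the 1 on which Ciita was not detected (difference -2.03 ± 0.33, adjusted p = 0.00773). Nlrc5, the corresponding regulator of class I genes, fell by 1.06 ± 0.25 and Irf5 by 0.89 ± 0.12, but the call of Nlrc5 ended when any of mutant mouse 2 and the 3 control mice was left out. The class I heavy chain genes H2-K1 (0.28 ± 0.12) and H2-D1 (-0.12 ± 0.21) did not pass. Of 12 class I partner genes measured 3 fell, against 14.5% of all tested genes. These were the endoplasmic reticulum chaperones Calr and Pdia3 and the proteasome activator subunit Psme1, by 0.72, 0.57 and 0.47 on the log2 scale. The calls of Pdia3 and Psme1 ended when control mouse 1 or control mouse 2 was left out, and that of Psme1 also without mutant mouse 1 or control mouse 3. The standard proteasome subunit genes Psmb5, Psmb6 and Psmb7, which the immunoproteasome subunits replace, differed by -0.01, 0.03 and 0.13 and did not pass.

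Of 29 other interferon-induced genes measured, 12 fell and 1 rose, with a median of -0.43, against 14.5% and 12.7% of all tested genes. Ifi27l2a read 9.70, 9.90 and 9.74 in mutants, against 11.94, 12.11 and 11.22 in controls, a difference of -1.98 ± 0.23 (adjusted p = 0.00369). Uba7, the enzyme that activates ISG15 for transfer to proteins, read 11.04, 11.25 and 11.36 in mutants, against 12.47, 12.61 and 12.40 in controls (difference -1.28 ± 0.13, adjusted p = 0.0029). In these 2 genes mutant mouse 3 lay close to the other mutants and below every control. Oas1g fell by 1.12 ± 0.30, although it belongs to a family of near-identical genes and its call ended when either of mutant mice 1 and 2 or of control mice 1 and 2 was left out. Mutant mouse 3 was the highest mutant for 22 of the 29. Among genes that restrain the signal, the phosphatase gene Ptpn6 fell by 1.05 ± 0.16 and Samhd1, a nucleotide hydrolase gene, rose by 0.72 ± 0.14. None of 10 sensors and adaptors passed in limma's test.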

How the data were processed

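Per the labels' protocols, lung RNA of 6 mice was amplified from 550 ng into biotinylated cRNA for Illumina bead arrays. The deposited table gives, per the file headers, a linear intensity and a detection p-value for each probe and array. Per the submitters' processing notes, GenomeStudio 2009.2 and R 2.4.1 were used, with no step assigned to either. Background subtraction and the chip of each array: not given in the sources used here. The second deposited table holds the authors' quantile-normalized log2 values of 13261 probes. There the values of mutant mice 1 and 2 are the same at every probe and follow the intensities of mouse 2, so this table served as an alternative with mouse 1 dropped. Arrays have no read depth, and 3 mice per group limit the precision.

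Intensities were corrected and normalized with neqc (offset 16, quantile, log2) of limma 3.58.1 in R 4.3.3, using detection p-values in place of control beads, and fitted with lmFit and eBayes without covariates. Symbols came from the platform annotation, updated by Entrez identifier for 12490 of 12495 probes, and 932 of the 13361 tested probes were unnamed. Motif positions count from the transcription start. The fit was tested on simulated data. The genes, their type I and gamma-type classes, the other lists and the setting apart of mutant mouse 3 were chosen with earlier results of these data known, so no test of a list was made. All listed genes could be named, with values in each mouse for those past the threshold and for the lowest p of a class with none. Other pathway genes were named by the 3 largest changes past the threshold in each class, and H2-K1, H2-D1, Psmb5, Psmb6, Psmb7 and Siglech, and the per-mouse values of genes that did not pass, were chosen after their values were seen.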

Additional observations from a re-analysis of the deposited data

How the results depend on the processing

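The direction of the median difference stayed negative for type I genes (-0.20 to -0.93) and gamma-type genes (-0.32 to -0.71) under every alternative run, the -0.71 being that without the class I presentation genes. The count of genes that fell, 7, was 4 without the detection filter, where more probes were tested, and 20 with array weights, for which the cause was not tested, and it ranged from 4 to 16 with 1 mouse left out. The count that rose, 1, was 0 without background correction, with the authors' processed values, with a detection p below 0.01 on all 6 arrays and with the replicate block, and 0 to 1 with 1 mouse left out. Other pathway genes that fell ranged from 13 to 27 with 1 mouse left out. Mutant mouse 3 was the highest mutant for 28 to 31 interferon genes. The titles number the mice 1 to 3 in both groups and do not say that a number marks a pair. Deviations of same-numbered mice correlated at -0.09, -0.01 and -0.04, which shows no pairing across all tested probes. A pairing that acts on few genes could not be seen this way. With the replicate block, 5 interferon genes fell. Calls of Gbp3, Igtp, Irf1 and Ifitm1 held in 7 of 16, 10 of 16, 7 of 16 and 8 of 15 alternatives. Array signal near background limits Ifitm1 and Oasl1.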

Other observations

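Markers of macrophages and monocytes were measured in the same lungs and were used above only to rank mutant mouse 3 among the mutants. Of 5 measured, 2 fell and 3 did not pass, where 14.5% of all tested genes fell. Cx3cr1, a chemokine receptor gene, fell by 2.54 ± 0.19 on the log2 scale. Adgre1, which encodes F4/80, read 7.63, 7.46 and 7.42 in mutant mice 1, 2 and 3, against 8.67, 8.42 and 8.14 in control mice 1, 2 and 3, and fell by 0.91 ± 0.16. In both genes mutant mouse 3 was the lowest of the 6 mice. Marco differed by -0.66 ± 0.20, Mertk by 0.69 ± 0.25 and Chil3 by 0.26 ± 0.18. The differences of the 5 markers thus had both signs. Their summed level, most of it from Chil3, was 9554 to 11725 in mutants, against 7326 to 10199 in controls. None of the 4 neutrophil markers measured passed in limma's test.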
